A study of Mus musculus with 9 samples.

Results

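The genes described are receptors for dopamine, noradrenaline and serotonin: Drd1, Drd2 and Drd5, Adra1a and Adrb1, and Htr1a, Htr2a, Htr2c and Htr4. They were taken by symbol from a deposited table of 31052 genes in 9 libraries, and 8 of the 9 had a column there. Drd2 was not analysed here. The libraries were made from nuclear RNA of mouse hippocampal pyramidal cells with the SMART-Seq mRNA LP kit. The cells had been imaged in vivo while mice navigated, functionally identified as place cells (5 libraries) or silent cells (4 libraries), and phototagged before nuclei were collected. All libraries carried the genotype label WT. Age, sex, the phototagging construct and the number of nuclei per library were not stated. Each title held a different mouse number, but whether each library came from its own animal was not stated either. P-values therefore measure only the spread between these libraries.

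Dopamine and noradrenaline reach the hippocampus on axons from the midbrain and the locus coeruleus, and serotonin on axons from the raphe nuclei. The receptors listed here act through G proteins. Drd1, Drd5, Adrb1 and Htr4 couple to Gs and raise cyclic AMP, Drd2 and Htr1a couple to Gi and lower it, and Adra1a, Htr2a and Htr2c couple to Gq and activate phospholipase C. In pyramidal cells, D1-class and beta-adrenergic receptors are known for their part in long-lasting synaptic potentiation, and Htr1a for inhibition through potassium channels.

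Whole reads were recovered from the deposited values, and library depths were put on 1 scale with trimmed means of M-values (TMM). In units of 1000000 reads, depth ran from 14.0 to 22.6. Summed levels of 6 excitatory neuron markers were 1761 to 2478 reads per 1000000 (RPM) in place and 2054 to 2813 in silent libraries, and each of the 6 exceeded 3 reads in at least 8 libraries. Markers of other cells were present too. The 10 oligodendrocyte markers summed to 198 to 3516 RPM in place and 118 to 585 in silent libraries, and the 7 astrocyte markers to 201 to 2823 and 194 to 581. Place replicate 3 gave both place maxima. Median sums were 1511 RPM in place and 295 in silent libraries for oligodendrocyte markers, and 218 and 268 for astrocyte markers. Place replicate 3 also had the lowest sum of CA1 pyramidal markers of all libraries, 404 RPM, and the highest of dentate granule cell markers, 281. The 10 interneuron markers summed to 316 to 399 and 364 to 977 RPM, with Htr3a above 0 in only 1 library. Cck had the highest mean of the 10, at 196 ± 57.9 RPM for place (SD, n = 5) and 282 ± 131 for silent (SD, n = 4). Which cells gave the Cck reads was not tested. The Y-linked transcript Eif2s3y was at 350 RPM or more in the 4 silent libraries and in place replicate 1, and absent from place replicates 2 to 5. Only 1 place library shared this transcript with the silent group, so its presence and the cell class can hardly be told apart. X-linked Xist, which is expressed in female cells, was at 772 to 1396 RPM in place replicates 2 to 5, at most 2.93 in 4 of the other libraries, and at 317 in silent replicate 1, which also held Eif2s3y at 546. More genes were detected in place (18603 ± 1936, SD, n = 5) than in silent libraries (16091 ± 1606, SD, n = 4). Their part in the receptor values was not tested, apart from fits with Eif2s3y or the number of detected genes as a covariate.

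Each receptor was near absent from some libraries and plainly present in others. Of the 72 receptor-by-library values, 20 held no reads, 11 held 1 to 3 reads and 41 held more. No count fell between 3 and 17, the median of the 41 was 236 and the highest was 706. Exactly 1 read was seen 10 times, 5 of them for Adra1a. A receptor was called above the floor where it had more than 3 reads, since a count of 0 allows up to about 3 (0.133 to 0.214 RPM, by library). Reads without molecular identifiers are not independent molecules, so the floor covers counting error only. In bulk libraries of nuclei, fewer expressing cells and less RNA per cell cannot be told apart. How reads came to be missing from a library was not tested, so a count at or under the floor is not taken as absence from the cells.

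**Figure D1:**
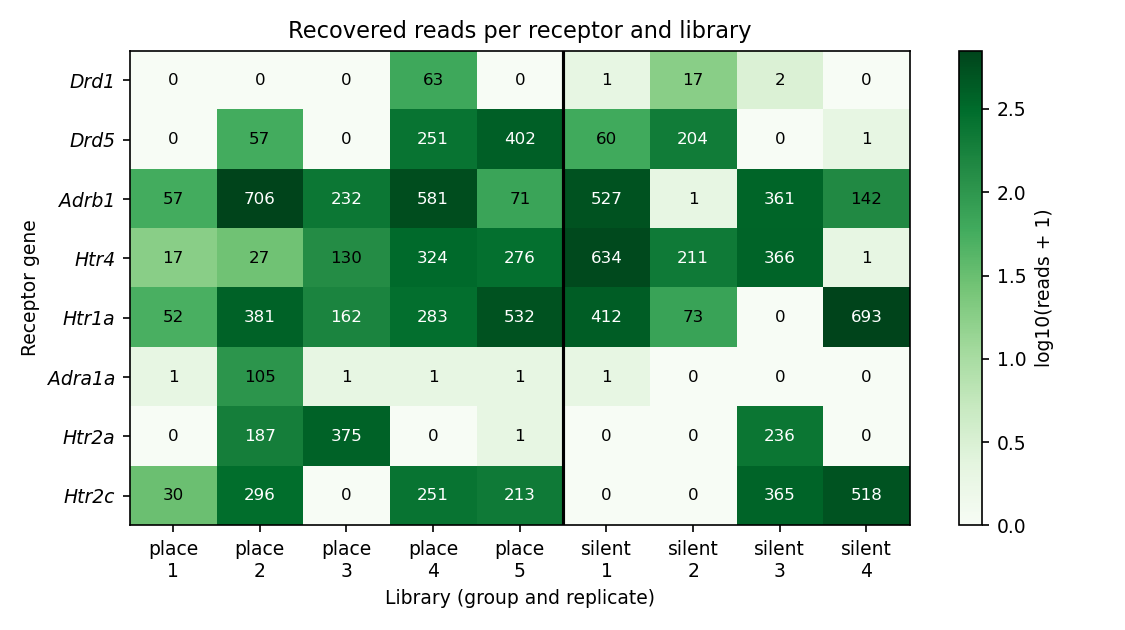
Recovered reads of the 8 receptors (rows, ordered by G protein coupling) in the 5 place and 4 silent libraries (columns, by group and replicate), with colour on a log10(reads + 1) scale. Counts of 0 to 3 sit beside counts of 17 to 706, and no receptor exceeds 3 reads in all 9 libraries.

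Of the receptors, Adrb1 and Htr4 had at least 1 read in all 9 libraries and exceeded the floor in 8, as did Htr1a. Htr2c exceeded it in 6 libraries, Drd5 in 5, Htr2a in 3, Drd1 in 2 and Adra1a in 1. Per library, 4 to 7 of the 8 receptors exceeded the floor in the place group (5.2 ± 1.3, SD, n = 5) and 3 or 4 in the silent group (3.75 ± 0.5, SD, n = 4). The ranges met at 4 receptors, and the libraries with the most receptors, place replicates 2 and 4 with 7 and 6, also had the most genes detected, 20990 and 20129. Place replicate 2 lacked only Drd1 among the 8. Silent replicate 4, with 15515 genes detected, held only Adrb1, Htr1a and Htr2c above the floor. Silent replicate 1, with the fewest genes detected (14176), held 4 receptors, as did silent replicate 2 with 17899. A link between the number of receptors and of detected genes was not tested.

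Which transcripts differ between the cell classes was asked with limma on log2(value + 1), place minus silent, over the 15219 genes whose value reached 10 in 4 or more libraries. Values here are the deposited ones divided by relative depth, and 1 read is worth a different amount in each gene, from 0.342 (Htr2a) to 6.98 (Adra1a) among the receptors and 3.18 at the median of tested genes. The filter, the pseudocount and SDs of log2 values are therefore in units that differ between genes. Adjustment was by Benjamini-Hochberg and the threshold 0.05. Adrb1, Htr1a, Htr4, Drd5 and Htr2c passed this filter on low values and were tested; Drd1, Adra1a and Htr2a did not. None of the 5 tested receptors was past the threshold, against 0 of 15219 genes (0%) over the whole table by limma. At an unadjusted p under 0.05 there were 0 of the 5 receptors and 771 genes (5.07%), 577 with higher values in place (3.79%) and 194 with lower (1.27%). Voom, limma's method for counts, called 4 genes on the recovered reads (0.0263%). With Eif2s3y as a covariate limma called 218 (1.43%), and without place replicate 1 it called 1 (0.0068%). No receptor was among any of these. Over the other settings the log2 fold ran from -3.78 to 2.27 for Drd5, -0.61 to 3.11 for Adrb1 and -2.29 to 1.02 for Htr4, and from -0.33 to 3.53 for Htr1a and -0.68 to 3.64 for Htr2c. The limma adjusted p of the 5 was at least 0.763 in all of these. In none of the 5 receptors did the place and silent libraries separate without overlap, which 288 genes (1.89%) did. The standard errors of the 5 log2 folds were 1.87 to 2.99, where the median of all tested genes was 1.32. Among tested genes with mean levels in the same range as these receptors (5.64 to 16.9 RPM), the median was 2.33.

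Among the Gs-coupled receptors, Adrb1, the main cardiac and cortical beta-adrenergic receptor gene, stood in place replicates 1 to 5 at 3.78, 39.7, 12.3, 26.4 and 3.80 RPM. In silent replicates 1 to 4 it stood at 37.5, 0.0505, 22.0 and 6.28. Silent replicate 2, with 1 read, was the low library, and both groups otherwise covered a similar range. Mean levels of 17.2 ± 15.6 RPM for place (SD, n = 5) and 16.5 ± 16.8 for silent (SD, n = 4) differed by less than either SD. The log2 fold was 1.36 ± 1.87 SE, with a limma adjusted p of 0.906. Without silent replicate 2 the log2 fold was -0.61.

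Htr4, a serotonin receptor known to raise pyramidal cell excitability, stood at 1.13, 1.52, 6.91, 14.7 and 14.8 RPM in place replicates 1 to 5. In silent replicates 1 to 4 the levels were 45.1, 10.7, 22.3 and 0.0442. The 3 silent libraries with more than 1 read all lay above place replicates 1 to 3, and 2 of them above every place library, while silent replicate 4 lay below all. Mean level was lower over place (7.81 ± 6.73 RPM, SD, n = 5) than over silent libraries (19.5 ± 19.3, SD, n = 4), by less than the silent SD. The log2 fold was -0.04 ± 1.92 SE, with a limma adjusted p of 0.999. It was -2.19 when silent replicate 4 was left out (limma adjusted p = 0.850) and 1.02 when silent replicate 1 was (limma adjusted p = 0.952).

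Drd5, the D1-class dopamine receptor gene prominent in hippocampus, had no reads in place replicates 1 and 3 and stood at 3.21, 11.4 and 21.5 RPM in place replicates 2, 4 and 5. Silent replicates 1 and 2 held 4.27 and 10.3 RPM, silent replicate 3 none, and silent replicate 4 a single read. Presence was thus split within both groups, in 3 of 5 place and 2 of 4 silent libraries above the floor. The means were 7.22 ± 9.24 RPM for place (SD, n = 5) and 3.65 ± 4.86 for silent (SD, n = 4). The log2 fold was 0.74 ± 2.70 SE, with a limma adjusted p of 0.976. Leaving out place replicate 4 or 5, or silent replicate 3 or 4, turned its sign, to -0.15, -0.38, -0.64 and -0.23.

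Drd1, which encodes the D1 dopamine receptor itself, was seen mainly in place replicate 4, with 63 reads or 2.86 RPM, and in silent replicate 2, with 17 reads or 0.858 RPM. Silent replicates 1 and 3 held 1 and 2 reads, and the remaining 5 libraries none. Over all 9 libraries it had 83 reads, against 975 for Drd5. Per kilobase of annotated exon, mean levels over 9 libraries were 0.120 ± 0.263 (SD) for Drd1 and 1.79 ± 2.35 for Drd5, and the gap was smaller than the SD of Drd5.

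The only Gi-coupled member measured, Htr1a, stood at 3.45, 21.4, 8.61, 12.9 and 28.4 RPM in place replicates 1 to 5. In silent replicates 1 to 4 it stood at 29.3, 3.69, 0 and 30.6, and the 2 highest silent libraries lay just above the highest place library. With 693 reads in silent replicate 4 and none in silent replicate 3, the silent group held both extremes. Mean levels were close, 15.0 ± 10.0 RPM for place (SD, n = 5) and 15.9 ± 16.3 for silent (SD, n = 4). The log2 fold of 2.31 ± 2.06 SE, with a limma adjusted p of 0.862, had the opposite sign to the difference of the means. It became -0.33 without silent replicate 3 (limma adjusted p = 0.941).

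**Figure D2:**
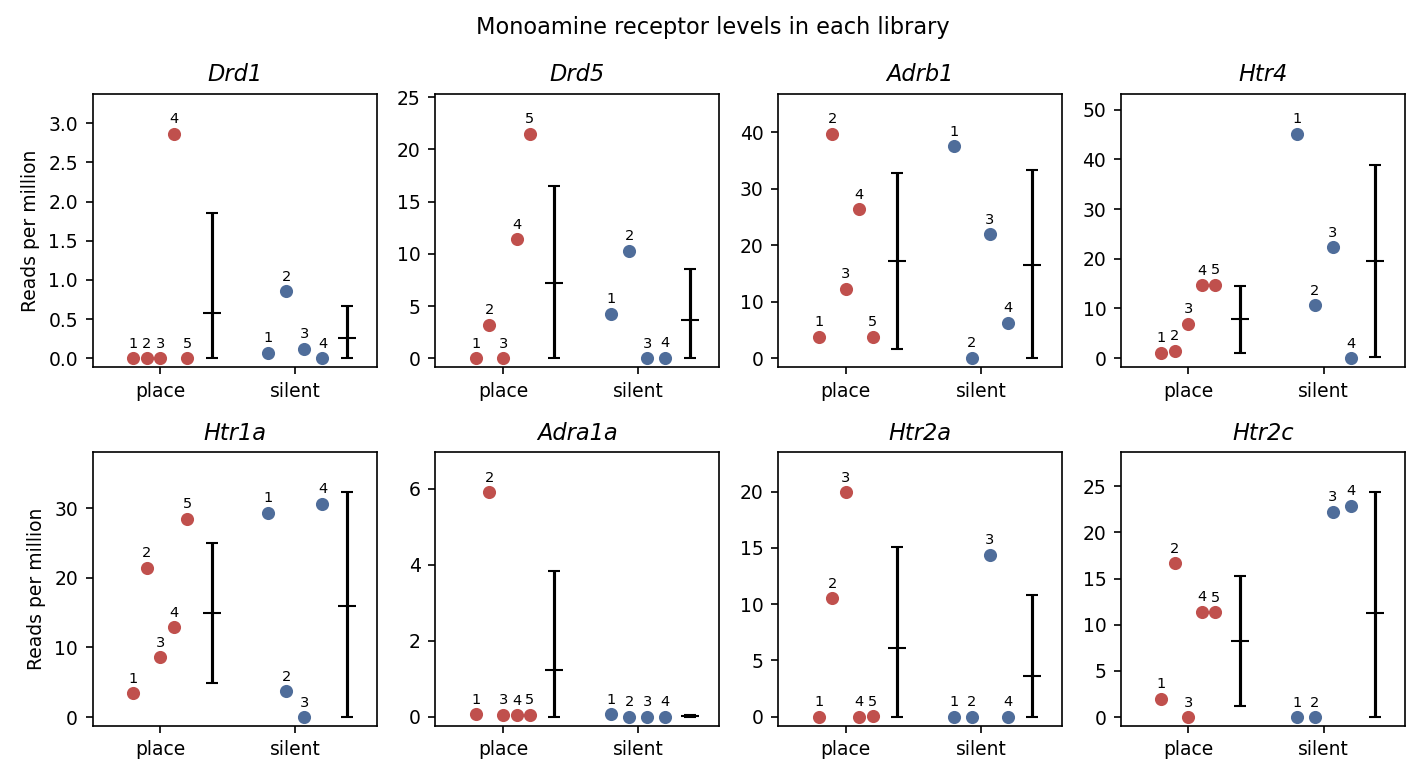
Level of each of the 8 receptors in RPM, on TMM-scaled depth (linear axis from 0), by group; points are libraries with their replicate number, and black bars are mean ± SD, with the lower end stopped at 0. Place and silent points overlap for all 8 receptors, and in both groups libraries near 0 sit beside libraries well above the mean for Drd5 and Htr2c.

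Of the Gq-coupled receptors, Htr2c, an X-linked serotonin receptor gene known for high expression in choroid plexus, stood at 1.99, 16.7, 0, 11.4 and 11.4 RPM in place replicates 1 to 5. Silent replicates 1 and 2 had no reads, and silent replicates 3 and 4 stood at 22.2 and 22.9, above every place library. The silent group was thus split between no reads and the highest levels, while 4 of 5 place libraries were intermediate. Means were 8.29 ± 7.03 RPM for place (SD, n = 5) and 11.3 ± 13.0 for silent (SD, n = 4). The log2 fold of 1.89 ± 2.99 SE, with a limma adjusted p of 0.923, again had the opposite sign to the difference of the means. It was 0.18 without silent replicate 1 or silent replicate 2, and 3.64 without place replicate 3, where Htr2c had no reads.

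Since Htr2c marks choroid plexus too, the level of that tissue's markers was set beside it. Of the 7 listed, 4 were in the table (Ttr, Kl, Kcne2 and Enpp2), and their sum was 122 to 469 RPM in place and 58.6 to 116 in silent libraries. Enpp2, which oligodendrocytes also express, made up 71.9 to 435 RPM of it in place and 24.6 to 84.4 in silent libraries. Ttr, the defining transcript of choroid plexus, was at 18.9 RPM in silent replicate 4, at 2.41 in place replicate 5 and at most 0.0664 elsewhere. In silent replicate 3, where Htr2c was at 22.2 RPM, Ttr had no reads and the marker sum was at its lowest, 58.6 RPM. Kl, at 34.1 RPM there, was the highest of the silent group, and it ran from 7.70 to 41.0 RPM over the 9 libraries. In silent replicate 4, where Htr2c was at 22.9 RPM, Ttr was at its highest. Kcne2 was at 8.69 RPM in place replicate 4, where Htr2c was at 11.4, at 0.374 in place replicate 5 and absent from the other 7. With values in only 2 libraries, the recovered reads of Kcne2 are uncertain. The part of choroid plexus RNA in the Htr2c values was not tested. Htr2c was absent from silent replicates 1 and 2 and present in silent replicates 3 and 4, all of which held Eif2s3y.

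Htr2a, a serotonin receptor gene of cortical pyramidal cells and interneurons, was at 10.5 RPM in place replicate 2, 19.9 in place replicate 3 and 14.4 in silent replicate 3. Place replicate 5 held 1 read and the other 5 libraries none. Adra1a, an alpha-adrenergic receptor gene found in hippocampal interneurons, reached 105 reads or 5.91 RPM in place replicate 2 and did not exceed 1 read in any other library. Neither entered the test. Gad1 and Gad2, the GABA-synthesizing enzymes of interneurons, were at 140 and 18.3 RPM in place replicate 2 and at 42.2 and 65.0 in silent replicate 3. In place replicate 3, the library highest in Htr2a, Gad1 was at 184 RPM and Gad2 had no reads. In the libraries with at most 1 read of either receptor, Gad1 ran from 0.356 (silent replicate 1) to 60.7 RPM (silent replicate 2). Gad2 ran there from 0 to 98.7 RPM, the latter in place replicate 5. The summed interneuron markers were at 373 and 377 RPM in place replicates 2 and 3, inside the range of the place group, and at 977 in silent replicate 3, the highest of all 9 libraries. Of that sum 640 RPM was Vip, which marks 1 class of interneurons, and without Vip it was 337. Vip was otherwise seen only in place replicate 2, at 8.44 RPM. With values in only 2 libraries, its recovered reads are uncertain. Slc32a1, another of the interneuron markers, was at 8.67 RPM in place replicate 2, 12.7 in silent replicate 3 and 2.07 in silent replicate 2. It had no reads elsewhere, and place replicate 3, highest in Htr2a, held reads of neither Vip nor Slc32a1. Their part in the Htr2a and Adra1a values was not tested.

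The order of levels was set per kilobase of annotated exon, since the receptors' exonic lengths differ from 3152 bases (Drd5) to 9328 (Htr2c). Mean levels over the 9 libraries, in RPM per kilobase, were highest for Adrb1 (4.99 ± 4.47, SD, n = 9), then Htr1a (3.43 ± 2.73), Htr4 (2.65 ± 2.89) and Drd5 (1.79 ± 2.35). Htr2c (1.03 ± 1.02), Htr2a (0.890 ± 1.40), Drd1 (0.120 ± 0.263) and Adra1a (0.0789 ± 0.224) followed. No 2 neighbours in this order differed by more than the larger of their SDs, so the order is that of these means only.

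Summed by coupling, the Gs receptors stood at 4.91 to 55.4 RPM in place (median 40.0) and 6.36 to 87.0 in silent libraries (median 33.1). The Gq receptors stood at 2.06 to 33.1 (median 11.5) and 0 to 36.6 (median 11.5). Htr1a alone made up the Gi sum. Libraries differed in which class dominated: silent replicate 1 held 87.0 RPM of Gs receptors and 0.0712 of Gq receptors, and silent replicate 4 held 6.36 and 22.9. The 8 receptors together summed to 63.4 ± 34.9 RPM for place (SD, n = 5) and 70.7 ± 38.1 for silent (SD, n = 4), with overlapping ranges.

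**Figure D3:**
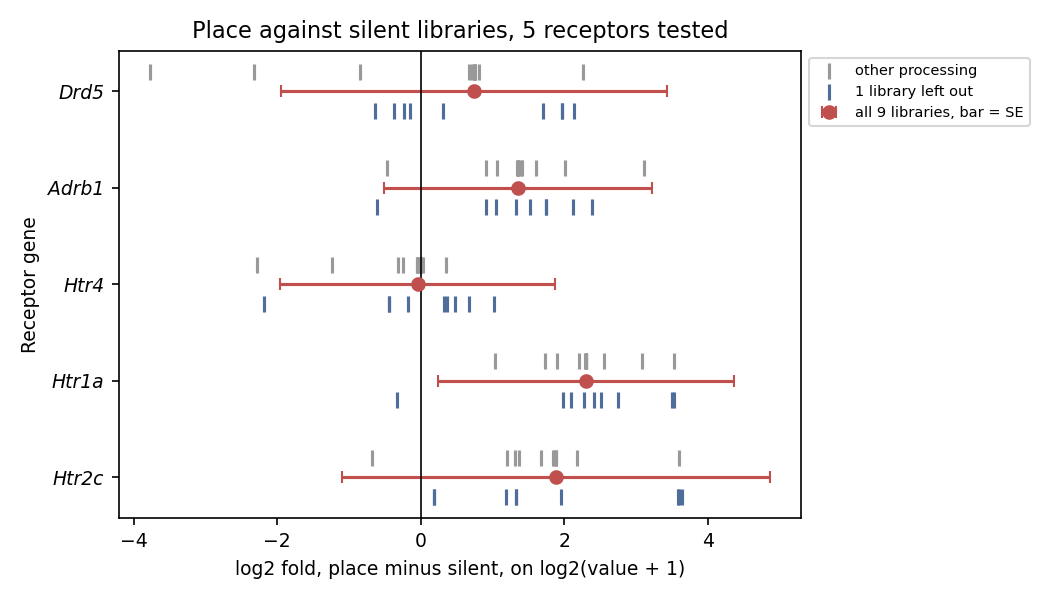
Log2 fold, place minus silent, of the 5 tested receptors on the log2(value + 1) scale; red points with bars are the fit to all 9 libraries with its SE, grey ticks other processing and blue ticks fits with 1 library left out. No receptor is past the threshold under any setting, and leaving out a single library moves Htr1a from 2.31 to -0.33 and Htr4 from -0.04 to -2.19.

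Other monoamine receptor genes were also uneven between libraries. Of 22 listed (chosen, like all lists here, with earlier results of these data known), 15 were in the table and 9 were tested. None was past the threshold; 7 had positive and 2 negative folds, with a median log2 fold of 1.67; over all tested genes the median was 0.20 and 59% of folds were positive. Htr1b, a Gi-coupled serotonin receptor often placed on axon terminals, was the highest by mean, at 14.5 ± 11.5 RPM for place (SD, n = 5) and 27.5 ± 26.1 for silent (SD, n = 4). Its log2 fold of 0.96 ± 2.26 SE had the opposite sign to the difference of the means, and was -1.91 without silent replicate 1, which had no reads. Htr5a, another Gi-coupled serotonin receptor, averaged 3.30 ± 4.45 for place and 10.9 ± 7.58 for silent, a log2 fold of -3.47 ± 2.48 SE with a limma adjusted p of 0.861. Array weights gave -0.66, and leaving out a library gave between -5.09 (silent replicate 2) and -2.19 (place replicate 3). Htr1f stood at 13.9 ± 15.7 and 3.64 ± 5.64, Htr6, a Gs-coupled receptor, at 0.536 ± 0.813 and 0.103 ± 0.146, and the alpha-adrenergic Adra1d at 2.93 ± 1.24 and 2.47 ± 2.62.

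The G proteins and enzymes through which these receptors signal were largely present in every library. Of 20 listed, 18 were tested, none was past the threshold, 10 had positive and 8 negative folds, and the median log2 fold was 0.07. Adcy1, a calcium-stimulated adenylyl cyclase of pyramidal cells, averaged 676 ± 162 RPM for place (SD, n = 5) and 705 ± 212 for silent (SD, n = 4). Gnao1, the Go alpha subunit, averaged 261 ± 56.8 and 194 ± 41.0, a log2 fold of 0.42 ± 0.25 SE with a limma adjusted p of 0.861; it was 0.27 without silent replicate 2 and 0.75 with Eif2s3y as a covariate. Others were uneven. Plcb4, a phospholipase C that Gq activates, averaged 32.6 ± 30.4 and 7.45 ± 10.4, a log2 fold of 4.38 ± 1.97 SE with a limma p of 0.0459 before and 0.861 after adjustment. Without silent replicate 2, where Plcb4 had no reads, the log2 fold was 2.54. Gnai3 (26.0 ± 18.1 and 31.4 ± 41.0) and Adcy5 (26.1 ± 15.7 and 20.1 ± 26.6) had no reads in 2 and 1 silent libraries. Their log2 folds were 4.05 ± 2.64 SE and 2.59 ± 2.01 SE. That of Gnai3 had the opposite sign to the difference of its means, and was 1.37 with Eif2s3y as a covariate. That of Adcy5 was 0.19 without silent replicate 4, where it had no reads.

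Spread between libraries was wider for the receptors than for most transducers. The SD over 9 libraries of log2(value + 1) was 2.82 to 4.73 in the 5 tested receptors (median 3.66), 3.44 at the median of the other 9 receptors, 0.68 at the median of the G protein and effector genes, and 1.73 over all tested genes. All 5 tested receptors fell to 3 reads or fewer in some library, as did 4 of 18 transducer genes (22.2%) and 7102 of all tested genes (46.7%). Among the 3249 tested genes with means between 5.64 and 16.9 RPM, the range of the 5 receptors, 84.3% fell to 3 reads or fewer in some library and the median SD was 3.75.

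**Figure D4:**
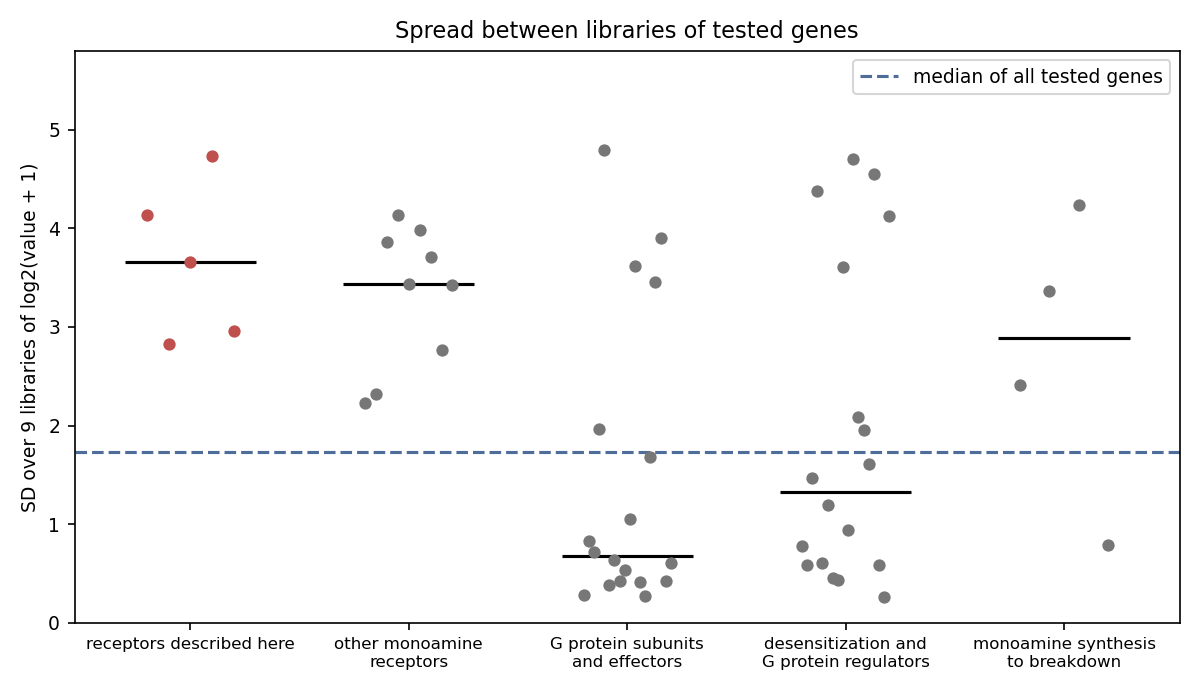
Spread between the 9 libraries (SD of log2(value + 1)) of tested genes in 5 lists; points are genes, black bars list medians and the dashed line the median of all tested genes (1.73). The 5 receptors (2.82 to 4.73) lie above the line, and most G protein and effector genes lie below it.

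Genes that end or shape receptor signalling were next. Of 19 listed, 18 were tested, none was past the threshold, 8 had positive and 10 negative folds, and the median log2 fold was -0.10. Arrb2, a beta-arrestin that uncouples phosphorylated receptors, averaged 95.4 ± 26.9 RPM for place (SD, n = 5) and 130 ± 32.5 for silent (SD, n = 4), a log2 fold of -0.46 ± 0.32 SE with a limma adjusted p of 0.861, and of -0.10 with Eif2s3y as a covariate. Rgs4 and Rgs8, which speed G protein turn-off, stood at 53.7 ± 32.1 and 21.4 ± 21.5, and at 28.5 ± 22.6 and 11.3 ± 13.8. The log2 fold of Rgs4 was 3.38 ± 1.89 SE, and 0.90 without silent replicate 4, where it had no reads. That of Rgs8 was 4.76 ± 2.52 SE, and 0.90 with the number of detected genes as a covariate. Grk5, a receptor kinase, was above the floor in 4 of 5 place and 1 of 4 silent libraries. The share of all genes with such a split was not counted. Its log2 fold was 4.44 ± 2.51 SE, and 2.94 to 7.51 over the other settings. The limma adjusted p of these genes was 0.861 each. Dlg4, a postsynaptic scaffold that binds Adrb1, was the most abundant, at 252 ± 45.7 and 268 ± 45.1.

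Of 15 genes of monoamine synthesis, storage, uptake and breakdown, 9 were in the table and 4 were tested, none of them past the threshold. Maoa, a monoamine oxidase, averaged 38.1 ± 35.7 RPM for place (SD, n = 5) and 45.1 ± 32.7 for silent (SD, n = 4). Its log2 fold of 1.70 ± 2.32 SE had the opposite sign and was -1.44 without silent replicate 1. Slc29a4, a low-affinity monoamine transporter, stood at 7.63 ± 10.1 and 12.5 ± 7.02. Slc18a2, the vesicular monoamine transporter, exceeded the floor in all 9 libraries, narrowly so in place replicate 3 (0.213 RPM), at 27.7 ± 24.7 and 24.5 ± 7.21, with a log2 fold of -1.17 ± 1.44 SE that was 0.21 without place replicate 3.

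By a likeness rule that took the 2 genes with the highest Pearson r of log2(value + 1), Adrb1 was most like Cnih4 (r = 0.956) and Ephb2 (0.952). Htr1a was most like Exosc5 (0.974) and Stat5b (0.970), and Htr4 most like Vhl (0.979) and Vwa3b (0.975). Each r is over the same 9 libraries, on values divided by relative depth, and many genes lacked reads in some of these libraries. It is a description without a test, and how the match arises was not tested. Of 11997 candidate genes, 52 had r above 0.8 with Adrb1, 196 with Htr1a and 275 with Htr4. The other receptors had reads in fewer than 7 libraries and were not compared in this way.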

How the data were processed

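The values deposited by the authors are a normalized read signal in which each row is a library and each column a gene. Per the submitters' processing notes, STAR, HTSeq and GRCm39 were used, with no version; annotation, strand setting and normalization method were not stated. The values of all 8894 genes above 0 in all 9 libraries were whole multiples (within 0.05) of 1 number per gene, which matched a TMM factor per gene with Ezh2 as reference, so that libraries carried no common scale. Dividing by it gave whole reads, also for the 8 receptors; for genes with values in 1 or 2 libraries the division is uncertain. The step was also run on simulated reads, scaled by the same rule that it undoes and drawn from genes already matched. That run cannot show whether the deposited values were scaled by this rule. Nor does it cover genes with values in few libraries. Library depth was total reads times a TMM factor across libraries (30% trim of M-values, 5% of A-values), and RPM are reads per 1000000 of it.

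For the test, values were divided by relative depth, filtered (10 or more in 4 or more libraries) and fitted as log2(value + 1). The fit used limma 3.58.1 in R 4.3.3, with an intensity trend and no covariate. It was also run on simulated reads. These had 1 fixed spread setting for all genes, not the spread seen here, so that run does not cover genes that lack reads in some libraries. Folds on this scale depend on the pseudocount of 1 where libraries lack reads. Exonic lengths are from GENCODE M21 on GRCm38, another build than the table's, so no coordinates are printed. Named genes are the 8 receptors, up to 4 of each list by smallest p, the highest of each list by mean, and 2 likeness genes per receptor with reads in at least 7 libraries; 1 gene of this rule is not reported here. Genes named outside this rule (Ttr, Kl, Kcne2, Enpp2, Gad1, Gad2, Slc32a1, Vip, Cck, Htr3a, Eif2s3y, Xist and those under other observations) were chosen after their values were seen. The receptors and lists were chosen with earlier results of these data known. Alternatives were other scalings, pseudocounts, filters and covariates, array weights, voom, and leaving out each library. Count models planned on recovered reads (edgeR and DESeq2) were not run.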

Additional observations from a re-analysis of the deposited data

Results flagged for a closer look

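Within-group values of the 26 named genes and the 3 coupling sums were searched for a library far from the others (Dixon's criterion at 95%), and 10 of 58 groups held one. A rate of about 1 in 20 by chance holds only for independent groups of normally spread values. The coupling sums reuse the receptors' values and several genes lacked reads in many libraries, so that rate is no yardstick here. For genes without reads in most libraries of a group, a single library with reads is enough to be set apart. Drd1 was at 2.86 RPM in place replicate 4, with the other place libraries at 0, and at 0.858 RPM in silent replicate 2. Adra1a was at 5.91 RPM in place replicate 2, and its single read in silent replicate 1 gave 0.0712 RPM. Htr2a was at 14.4 RPM in silent replicate 3, the only silent library with its reads. Among other receptors, Htr1f was at 41.0 RPM in place replicate 5 and Htr6 at 1.97 RPM in place replicate 2. Plcb4 was at 85.0 RPM in place replicate 3. Grk5 was at 4.07 RPM in silent replicate 4. Slc29a4 was low in silent replicate 3, at 2.01 RPM.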

How the results depend on the processing

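No receptor was past the threshold under any of 21 other settings of the limma test. Of 548 alternative values, 507 kept their direction and side of the threshold or, for levels and likeness, stayed within their error. Another 38 changed sign and 3 counts of genes moved, and the cause was not tested. Part of this tally was fixed beforehand. Changing the filter leaves a log2 fold as it is, and a level was kept if it moved by less than the SD between libraries. The tally is therefore no measure of how steady the folds are, and each tested receptor took both signs over the settings. Over all tested genes, 0 were called under 18 of the settings, 4 with voom and 218 with Eif2s3y as a covariate. Log2 folds that changed sign were as follows; with all libraries and no covariate they were 0.74 for Drd5, 1.36 for Adrb1, 2.31 for Htr1a, 1.89 for Htr2c, -0.042 for Htr4, 0.96 for Htr1b, 1.67 for Adra1d, 1.70 for Maoa, -0.032 for Adcy1, -0.092 for Dlg4 and -1.17 for Slc18a2. With values as deposited, Htr4 stood at 0.0077 and Adcy1 at 0.0002. With quantile normalization, which moved the median of all genes from 0.20 to 0.01, Drd5 stood at -0.84, Adra1d at -0.084 and Htr1b at -0.30. With array weights, Htr4 stood at 0.030, Htr1b at -1.29 and Maoa at -0.23. With voom, Htr4 stood at 0.35 and Adcy1 at 0.017. With the number of detected genes as a covariate, which moved the median to -0.03, Drd5 stood at -2.33, Htr2c at -0.68, Htr1b at -0.091 and Adcy1 at 0.062. With Eif2s3y as a covariate, Drd5 stood at -3.78, Adrb1 at -0.47, Adcy1 at 0.24, Dlg4 at 0.030 and Slc18a2 at 0.83. Leaving out each library in turn gave 0 to 1 genes called, the 1 without place replicate 1, and folds of -0.64 to 2.13 for Drd5, -0.61 to 2.38 for Adrb1, -0.33 to 3.53 for Htr1a and -2.19 to 1.02 for Htr4. The same ranges were -1.91 to 2.23 for Htr1b, -0.29 to 0.10 for Adcy1, -0.20 to 0.025 for Dlg4, -1.80 to 0.21 for Slc18a2 and -1.44 to 2.88 for Maoa. The stricter filter gave no value for Drd5 and Htr2c, and the edgeR and DESeq2 alternatives were not run. The added likeness alternatives, chosen after seeing the data, kept every r within its interval. No paired analysis was possible because the labels pair no place library with a silent one. Replicate numbers here are only the order of the libraries within each group. Limits are set by 5 and 4 libraries, the 3 reads or fewer of each tested receptor in some library, and unstated numbers of nuclei and animals.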

Other observations

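Transcripts of monoamine synthesis outside the test were absent from most libraries. Th, which makes the dopamine precursor, Slc6a4, the serotonin transporter, and Dbh, which makes noradrenaline, each had a value above 0 in 1 of the 9 libraries. Ddc, which forms dopamine and serotonin from their precursors, had one in 2. Recovered reads, which are uncertain for genes with values in 1 or 2 libraries, were 1 for Th and 1 for Slc6a4. Dbh had 231 (13.0 RPM, place) and Ddc up to 369 (19.6 RPM, place). Of receptor genes under the filter on low values, Htr3a and Adra2b had a value above 0 in 1 library each, of 1 read. Adra2a had one in 2 libraries, at 10.5 RPM in 1 place and 11.4 RPM in 1 silent library. Hrh2, a histamine receptor, exceeded 3 reads in 3 libraries and Adrb3, a beta-adrenergic receptor, in 4.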
